A study of Mus musculus with 8 samples.

Results

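Mouse oxidative phosphorylation genes were taken from an RNA-seq table of 32567 genes by name and biotype: protein-coding genes of the mitochondrial genome, and nuclear genes named as Nduf (complex I), Sdh (complex II), Uqcr (complex III), Cox4 to Cox8 (complex IV) or Atp5 (complex V, ATP synthase) subunits. The rule gave 96 members, 83 nuclear and 13 mitochondrial. Complex I holds 36 nuclear and 7 mitochondrial members, complex II 4 nuclear members, complex III 8 and 1, complex IV 18 and 3, and complex V 17 and 2. The names also bring in genes that are not strict subunits, such as Cox7a2l, which acts in joining complexes III and IV, and Atp5sl, a complex I assembly factor now called Dmac2. Subunits with other names, such as Cyc1 and Ndufab1, lie outside the rule and were kept as a separate list.

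The study sequenced RNA from embryonic stem cells (ESC) and from RA-DIFF cells, obtained from the ESC as embryoid bodies treated with retinoic acid and plated briefly. Each stage has a wild-type line and a huntingtin-null line homozygous for the Hdh ex4/5 allele, in which the mouse huntingtin gene Htt is targeted (Htt-null). Each of the 4 conditions is 1 library of 1 line, so a difference has no replicate check, and no test was made: line, culture and genotype cannot be told apart. Intervals below are 95% intervals for counting error only. Total counts ran from 63617410 to 110569127 per library.

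Htt itself, the check of the genotype, went against a label. Its level, as counts scaled to the effective library size (CPM), was 166 CPM in wild-type ESC and 111 CPM in Htt-null ESC, a log2 ratio of -0.58. In the RA-DIFF pair it was 73.3 CPM in the library labelled wild-type and 98.7 CPM in the one labelled Htt-null, a log2 ratio of 0.43 in the other direction. These counts cover the whole gene and not the targeted exons alone, so they are a limited check. Genes of chromosome 8 also changed direction between the stages. There, 816 genes had an average log2 CPM above 0 over the 4 libraries. Their median log2 ratio, with the Htt-null line as numerator, was 0.36 for the ESC pair and -0.22 for the labelled RA-DIFF pair. For the 1223 such genes of chromosome 11 the medians were 0.22 and 0.014. Whether the RA-DIFF labels are exchanged was not tested. The RA-DIFF libraries are therefore named by their labels throughout, and any direction between them rests on labels that Htt does not bear out. If these columns are exchanged, every genotype ratio in RA-DIFF turns its sign, and the stage ratios change with it. The labelled stages did hold: the summed level of 8 pluripotency markers, Pou5f1 and Nanog among them, was 5425 and 4638 CPM in the ESC libraries and 55.6 and 13.4 CPM in the RA-DIFF libraries. In the same order 12 neuron markers summed to 318, 360, 3247 and 1502 CPM, although 1 of them, Stmn2, was lower in RA-DIFF. For 14 mesenchyme markers the sums were 90.9, 69.2, 798 and 2950 CPM. The part of these cell types in the stage ratios below was not tested.

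Oxidative phosphorylation passes electrons from NADH and succinate through complexes I to IV to oxygen, pumps protons across the inner mitochondrial membrane, and lets them return through ATP synthase to make ATP. Complex II is encoded wholly in the nucleus, whereas the other complexes combine nuclear subunits with a few made from the mitochondrial genome, whose genes are copied as long transcripts from both strands and then cut apart. Pluripotent stem cells are known to rely strongly on glycolysis, and differentiation is commonly accompanied by a remodelling of mitochondrial respiration.

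The mitochondrial members cannot all be measured alike in these data, since part of their sequence also occurs in the nuclear genome. A copy of part of the mitochondrial genome lies on the minus strand of chromosome 1 in the GRCm38 reference, at chr1:24612770-24616165, and it differs from positions 6413 to 9808 of the mitochondrial genome at 1 of 3396 bases. The start of mt-Co2, which encodes subunit 2 of cytochrome c oxidase, is identical in both places over its first 120 bases (mitochondrial 7013 to 7132; chromosome 1, minus strand, 24615446 to 24615565). The differing base lies at the start of mt-Nd3, a membrane subunit of complex I, and is in capitals in the lines that follow, which are shown because a read from such a stretch has more than 1 matching place.
mt-Co2, both places: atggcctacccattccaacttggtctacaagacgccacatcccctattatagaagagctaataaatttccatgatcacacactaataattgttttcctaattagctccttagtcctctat
mt-Nd3, mitochondrial genome, 9459 to 9518: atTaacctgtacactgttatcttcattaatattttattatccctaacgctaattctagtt
mt-Nd3 copy, chromosome 1, minus strand, 24613060 to 24613119: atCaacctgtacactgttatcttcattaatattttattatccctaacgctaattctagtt

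For every member the share of its 50-base windows that occur exactly elsewhere in the genome was counted. This share was 100% for mt-Co2, mt-Atp8, mt-Atp6, mt-Co3 and mt-Nd4l, 99.0% for mt-Nd3, 62.2% for mt-Nd4 and 51.1% for mt-Co1, and between 0 and 8.29% for mt-Nd1, mt-Nd2, mt-Nd5, mt-Nd6 and mt-Cytb. Several of the copied genes were listed with very few reads. Over the 4 libraries mt-Co2 had between 2 and 30 counts, mt-Co3 between 6 and 67, mt-Nd4l between 11 and 84 and mt-Nd3 between 58 and 248, while mt-Co1, the catalytic subunit of complex IV, had between 318252 and 383216. Copies and low counts did not go together in every gene: mt-Atp8 had between 10459 and 36267 counts and mt-Atp6 between 1174 and 12559, although all their windows are copied. The 7 pseudogenes annotated at and beside the copy on chromosome 1 held between 0 and 367 counts each. How the alignment treated reads with several places was not tested, the levels of copied genes are given as listed, and the 5 genes with under 10% of windows copied carry what follows on the mitochondrial genome.

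**Figure D1:**
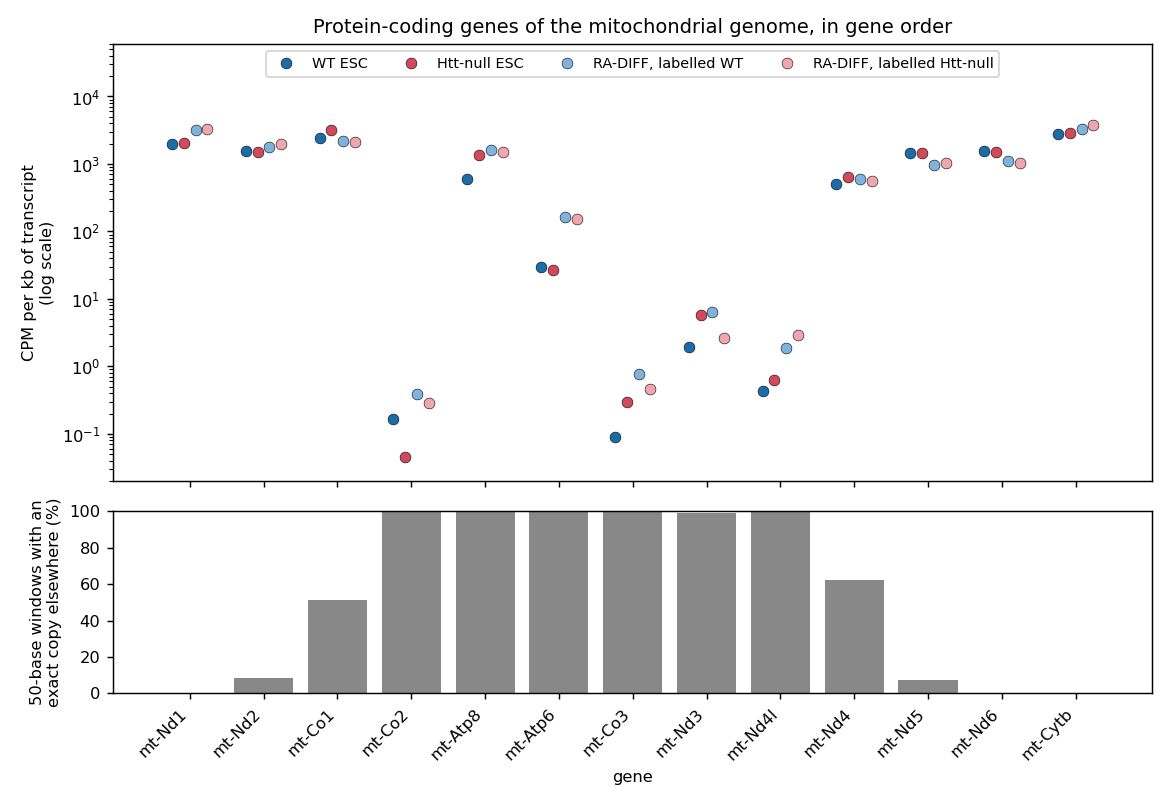
The upper panel plots each protein-coding gene of the mitochondrial genome in gene order, as CPM per kb of transcript on a log scale, with 1 point per library; the lower panel gives the percent of its 50-base windows with an exact copy elsewhere in the genome. Genes from mt-Co2 to mt-Nd4l, all with 99.0% or 100% of windows copied, include those near or under 10 CPM per kb, whereas mt-Nd1, mt-Nd2, mt-Nd5, mt-Nd6 and mt-Cytb lie between 969 and 3820 CPM per kb.

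The 5 genes with few copies had log2 ratios near 0 between genotypes and stood on both sides of 0 between the stages. mt-Nd1, a complex I membrane subunit, was at 1870.1 CPM in wild-type ESC, 1927 CPM in Htt-null ESC, 3089.7 CPM in the library labelled wild-type RA-DIFF and 3166.5 CPM in the one labelled Htt-null. Both RA-DIFF libraries thus lay above both ESC libraries, with a log2 ratio of 0.72 (interval 0.72 to 0.73) in the labelled wild-type pair and 0.72 (0.71 to 0.73) in the labelled Htt-null pair, just under the limit for a call. With the RA-DIFF labels exchanged these ratios are 0.76 and 0.68, and the first passes the limit. mt-Nd5, another proton-pumping subunit of complex I, was lower in RA-DIFF: 2662.1 and 2683.2 CPM in the ESC libraries against 1766.7 and 1898 CPM. Its log2 ratios were -0.59 and -0.50. mt-Nd6, the one protein-coding gene on the other strand, stood at 795 and 783 CPM in ESC and at 581 and 529.7 CPM in RA-DIFF, with log2 ratios of -0.45 and -0.56. The libraries were made strand-specific by a dUTP method, which puts the first read on the strand opposite to the gene. No strand option of the counting is named, and options not named are stated to be at their defaults, which take the first read as lying on the gene's own strand. Nuclear members held many reads, from 109902 to 194605 counts for Atp5b, and which strand option was used was not tested. Whether reads were counted by strand or from both strands together is not known, so reads of mt-Nd6 and reads of the opposite strand cannot be told apart. mt-Cytb, the mitochondrial subunit of complex III, was at 3209 and 3311 CPM in ESC and 3818 and 4369.6 CPM in RA-DIFF, and mt-Nd2 at 1639.5, 1543, 1849 and 2038 CPM in the same order. Between genotypes these 5 log2 ratios ran from -0.09 to 0.05 in ESC and from -0.13 to 0.19 in RA-DIFF.

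Together the mitochondrial members took 1.45% of all counts in wild-type ESC and 1.67% in Htt-null ESC, and 1.60% and 1.61% in the RA-DIFF libraries labelled wild-type and Htt-null. The 5 genes with few copies alone took 1.00%, 1.05%, 1.13% and 1.17%. The nuclear members took 0.998%, 1.07%, 0.869% and 0.808%, so the nuclear share was lower in both RA-DIFF libraries than in both ESC libraries while the share of these 5 mitochondrial genes was higher. The rise was not one of all 5 genes: mt-Nd1, mt-Nd2 and mt-Cytb were higher and mt-Nd5 and mt-Nd6 lower in RA-DIFF. The largest ratios were those of mt-Nd1, 0.72 in each pair, and the share without it was not computed. Much of the nuclear difference lay in 1 gene: without Atp5b, left out after seeing the data, the nuclear shares were 0.777%, 0.838%, 0.754% and 0.699%. In bulk RNA, fewer cells of a kind and less RNA per cell cannot be told apart.

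Per length, every nuclear member stood below the 5 mitochondrial genes with few copies in wild-type ESC. Median levels in wild-type ESC were 56.5 CPM per kb for the 36 nuclear members of complex I, 82.0 for complex II, 110.2 for complex III, 93.8 for complex IV and 110.3 for complex V. The highest nuclear member there was Atp5b, the catalytic beta subunit of ATP synthase, at 1171 CPM per kb. The limit on expression, a log2 CPM above 0 on average over the 4 libraries, was passed by 89 of the 96 members. The 7 that did not pass were mt-Co2, mt-Co3, mt-Nd4l and 4 tissue-restricted forms of complex IV, Cox6a2, Cox7b2, Cox8b and Cox8c. The median log2 ratio of RA-DIFF over ESC over the 79 nuclear members above the expression limit was -0.02 in the labelled wild-type pair, with 39 above and 40 below 0, and -0.16 in the labelled Htt-null pair, with 32 above and 47 below.

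Known regulator motifs, which the rule did not use, were more frequent in the promoters of nuclear members than in all promoters, although most members had neither an NRF1 nor a GABPA core. RefSeq promoters of GRCm38.p6, 300 bases around each start, were matched by symbol for 66 of the 83 nuclear members, with 71 promoters; no entry was found for the other 17, among them Atp5a1, Cox4i1, Cox4i2, Cox6c, Ndufa2 and Uqcrb. The core GCATGCGC of the site of NRF1, a known regulator of respiratory genes, was found on either strand, each promoter counted once, in 14.1% of the member promoters and in 3.52% of 21263 promoters of protein-coding genes. The core CCGGAAG bound by ETS factors such as GABPA was in 22.5% of member promoters against 11.6%, and the YY1 core AAGATGGCG in 9.86% against 1.83%. A match is a description of letters, not a site shown to be bound. NRF1 and GABPA cores occurred together in the promoters of 5 members, and those of Sdhb (iron-sulfur subunit of complex II), Cox6a1 (complex IV) and Atp5k (complex V) are printed with both cores in capitals, beside the promoter of Cox7a1, a complex IV gene with neither core, chosen after its values were seen. The absence of a core did not mark all the genes that stood lowest in RA-DIFF: Cox8a, among them at -1.69 and -1.63, has a GABPA core.
Sdhb, chr4:140961021-140961320, plus strand: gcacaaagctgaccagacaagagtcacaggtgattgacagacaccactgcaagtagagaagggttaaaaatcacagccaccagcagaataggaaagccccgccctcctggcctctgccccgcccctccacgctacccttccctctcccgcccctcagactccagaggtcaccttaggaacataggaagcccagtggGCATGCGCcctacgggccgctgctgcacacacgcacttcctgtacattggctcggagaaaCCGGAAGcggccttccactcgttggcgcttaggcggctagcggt
Cox6a1, chr5:115348909-115349208, minus strand: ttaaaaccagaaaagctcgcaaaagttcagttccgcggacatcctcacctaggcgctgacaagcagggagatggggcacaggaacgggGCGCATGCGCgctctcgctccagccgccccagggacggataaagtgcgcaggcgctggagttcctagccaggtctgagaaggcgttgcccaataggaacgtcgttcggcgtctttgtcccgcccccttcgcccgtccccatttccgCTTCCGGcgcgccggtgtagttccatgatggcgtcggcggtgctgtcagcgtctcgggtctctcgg
Atp5k, chr5:108434350-108434649, minus strand: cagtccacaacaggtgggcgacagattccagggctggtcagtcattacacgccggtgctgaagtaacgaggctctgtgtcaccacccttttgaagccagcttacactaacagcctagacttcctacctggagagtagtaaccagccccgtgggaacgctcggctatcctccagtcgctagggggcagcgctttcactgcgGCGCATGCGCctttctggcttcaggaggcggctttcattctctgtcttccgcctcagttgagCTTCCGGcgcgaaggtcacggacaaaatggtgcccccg
Cox7a1, chr7:30183921-30184220, plus strand: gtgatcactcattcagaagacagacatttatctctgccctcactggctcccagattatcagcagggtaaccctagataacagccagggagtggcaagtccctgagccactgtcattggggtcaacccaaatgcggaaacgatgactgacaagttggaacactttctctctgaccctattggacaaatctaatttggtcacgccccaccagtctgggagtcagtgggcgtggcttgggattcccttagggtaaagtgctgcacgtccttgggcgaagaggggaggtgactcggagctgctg

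Between the stages, the nuclear members that stood lowest in RA-DIFF were mainly those of complex IV. A gene was called when its log2 ratio passed 0.75 in size and it lay above the expression limit, with no test. From ESC to RA-DIFF, 8 of the 14 complex IV nuclear members above the limit were called lower in the libraries labelled wild-type and 8 in those labelled Htt-null, where 26.1% and 24.8% of all 15492 genes were called lower. The median log2 ratio of complex IV was -0.81 and -1.13, against 0.12 and 0.17 for all genes above the limit. Most complex IV transcripts are short, and these ratios moved with transcript length. Protein-coding genes had medians of -0.04 and -0.33 up to 600 bases and 0.05 and -0.06 from 600 to 1000. Those above 4000 bases had medians of 0.21 and 0.41, and the part of length was not tested. Outside complex IV the 65 nuclear members had medians of 0.18 and -0.06, with 5 and 7 called lower. Cox4i2 and Cox7a1 were under 1 CPM in both RA-DIFF libraries and passed the limit only through their ESC levels, so their direction was fixed by the limit. Without them, as added after seeing the data, 6 of 12 complex IV members were called lower in each pair, with medians of -0.75 and -0.83. Apart from these 2 genes, 5 of the 12 complex IV members were called lower in both labelled genotypes: Cox5a, Cox6b2, Cox6c, Cox7a2 and Cox8a. Of all genes 21.1% were called lower in both.

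Cox7a1, the form of subunit 7a typical of heart and skeletal muscle, was at 6.07 CPM in wild-type ESC, 7.67 CPM in Htt-null ESC, 0.527 CPM in the library labelled wild-type RA-DIFF and 0.325 CPM in the one labelled Htt-null. Its log2 ratio was -3.47 (interval -3.94 to -3.14) and -4.47 (-5.12 to -4.04), in the direction that the limit fixed. Cox8a, the widely expressed form of subunit 8, was at 185 and 165 CPM in ESC and 57.3 and 53.1 CPM in RA-DIFF. Its log2 ratios were -1.69 and -1.63. Cox6c stood at 209 and 184 CPM in ESC and at 68.7 and 68.5 CPM in RA-DIFF, with log2 ratios of -1.61 and -1.42. Cox7a2 was at 133 and 132 CPM in ESC and 76.1 and 69.2 CPM in RA-DIFF, at -0.80 and -0.93. These are small nuclear subunits that surround the catalytic core of the enzyme. The share of windows copied elsewhere was 21.8% for Cox8a, 22.2% for Cox6c and 5.08% for Cox7a2. Cox5a was at 118 and 97.7 CPM in ESC and 43.9 and 39.2 CPM in RA-DIFF, which gave log2 ratios of -1.43 and -1.32. Its partner Cox5b was at 45.6 CPM in wild-type ESC, 80.4 CPM in Htt-null ESC, and 28.2 and 23.8 CPM in RA-DIFF, so that its log2 ratio of -1.76 in the labelled Htt-null pair and -0.69 in the labelled wild-type pair differ more through the ESC than through the RA-DIFF libraries.

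**Figure D2:**
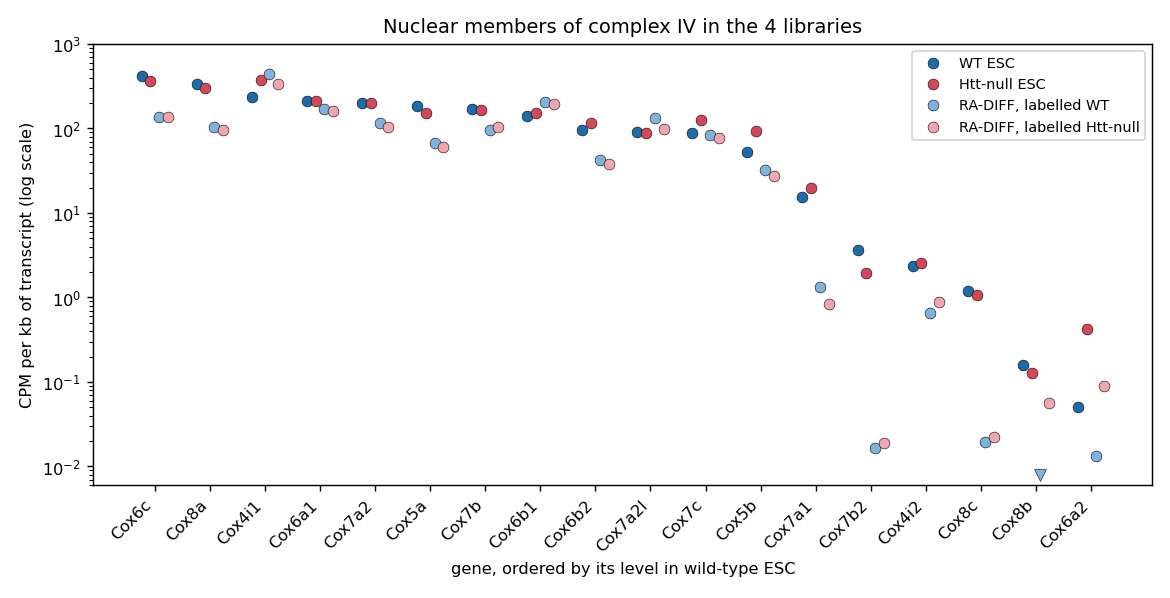
Each nuclear complex IV member is plotted as CPM per kb of transcript on a log scale, with 1 point per library, ordered by its level in wild-type ESC; the triangle marks Cox8b, listed at 0 in the library labelled wild-type RA-DIFF. Cox6c, Cox8a, Cox5a, Cox6b2 and Cox7a1 lie lower in both RA-DIFF libraries than in both ESC libraries, and Cox6b1 lies higher.

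Paired forms of a subunit showed which form made up each library. Of the Cox6b forms, counted per length, the testis-enriched Cox6b2 made up 40.7% and 42.8% in ESC and 17.0% and 16.5% in RA-DIFF, the rest being Cox6b1. Cox6b1 itself was at 86.7 and 95.3 CPM in ESC and 126 and 119 CPM in RA-DIFF. Cox7a1 made up 7.11% and 8.86% of Cox7a1 plus Cox7a2 in ESC and 1.15% and 0.781% in RA-DIFF. The widespread form was the main one in every library for the other pairs: Cox4i1, Cox6a1, Cox7b and Cox8a each made up at least 97.9% of their family. Among the rarer forms, Cox4i2, which is known to be induced by low oxygen in lung, had 150 and 120 counts in ESC and 53 and 63 in RA-DIFF. Cox7b2, a testis form, had 171 and 69 counts in ESC and 1 count in each RA-DIFF library, a log2 ratio of -7.79 (interval -13.10 to -5.29) and -6.70 (-12.03 to -4.18) with no prior count. Cox8c, likewise known from testis, had 48 and 32 counts in ESC and 1 count in each RA-DIFF library. Cox6a2 and Cox8b, the muscle forms, had at most 19 and 5 counts in any library, and 14 striated muscle markers summed to 76.7 and 99.3 CPM in ESC and to 8.84 and 13.6 CPM in RA-DIFF. Their sum moved with Cox7a1, and their part in its values was not tested. Of the 8 of these markers above the limit, 6 were called lower in each pair and 2 and 1 higher, beside 26.1% and 24.8% of all genes lower and 33.9% and 34.3% higher. Des, Myl4, Myl7 and Myh6 were under 1 CPM in both RA-DIFF libraries and passed the limit only through ESC, so the limit fixed their direction too. It likewise fixed that of Actc1, the one marker called higher in both pairs, which was at 0.0115 and 0.169 CPM in ESC and 1.63 and 3.53 CPM in RA-DIFF. ESC thus held low levels of several tissue-restricted complex IV forms that were near 0 in RA-DIFF.

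The remaining complex IV members were less alike across the stages. Cox4i1, the main form of subunit 4, was at 174 CPM in wild-type ESC, 276 CPM in Htt-null ESC, 328 CPM in the library labelled wild-type RA-DIFF and 247 CPM in the one labelled Htt-null. It was called higher with differentiation in the labelled wild-type pair, at 0.92 (interval 0.89 to 0.94), and was at -0.16 (-0.19 to -0.13) in the labelled Htt-null pair. With the RA-DIFF labels exchanged these ratios are 0.51 and 0.25, so that the call is lost and the negative ratio turns. Cox4i1 lies on chromosome 8, whose 816 genes above the limit had stage medians of 0.56 and 0.0023 in the 2 labelled pairs. Of those genes 45.5% and 29.5% were called higher, and their part in the values of Cox4i1 was not tested. Cox7a2l was at 98.4, 94.9, 144 and 107 CPM in the same order. Cox6a1 was at 119, 120, 98.4 and 91.6 CPM, and Cox7c was at 47.9, 68.3, 45.6 and 41.2 CPM. The share of windows copied elsewhere was 59.2% for Cox7a2l, 12.3% for Cox6a1 and 71.5% for Cox7c. Cox7b was at 169.8 and 166.8 CPM in ESC and 96.5 and 104.9 CPM in RA-DIFF, called lower in the labelled wild-type pair alone, with log2 ratios of -0.82 and -0.67. With the labels exchanged Cox7b is at -0.69 and -0.79, and the call passes to the other pair.

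In complex I, accessory subunits were called in both directions. In the labelled wild-type pair 6 of 36 nuclear members were called higher and 2 lower, and in the labelled Htt-null pair 2 higher and 3 lower; of all genes above the limit 33.9% and 34.3% were called higher and 26.1% and 24.8% lower, beside 16.7% and 5.56% higher and 5.56% and 8.33% lower in this complex. Ndufa2, an accessory subunit of the peripheral arm, was at 18.5 and 21.1 CPM in ESC and 49.4 and 53.5 CPM in RA-DIFF. Both RA-DIFF levels were above both ESC levels, and its log2 ratios were 1.42 and 1.34. Ndufb10, an accessory subunit of the membrane arm, was at 30.5 and 26.5 CPM in ESC and 54.5 and 55.5 CPM in RA-DIFF, at 0.84 and 1.07. Ndufb7 was at 28.8, 41.6, 81.8 and 66.6 CPM, at 1.51 and 0.68. Like Cox4i1 and Ndufa13 it lies on chromosome 8, and all 3 were called higher in the labelled wild-type pair alone. Ndufa8 was at 25.3 and 30.4 CPM in ESC against 45.6 and 49.4 CPM, at 0.85 and 0.70. Lowest in this complex was Ndufa7, at 204 and 188 CPM in ESC and 78.4 and 68.2 CPM in RA-DIFF, with log2 ratios of -1.38 and -1.47. Of the core subunits, which carry the electron path, Ndufs1 was at 266 and 278 CPM in ESC and 164 and 143 CPM in RA-DIFF, at -0.70 and -0.96. Ndufs8, another core subunit, was at 44.4 and 47.9 CPM in ESC and 59.99 and 71.1 CPM in RA-DIFF, at 0.43 and 0.57.

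In complexes II and III nearly all log2 ratios with differentiation stayed inside the limit. The 4 complex II members ran from -0.02 to 0.41 and from -0.18 to 0.45, and the 8 nuclear members of complex III from -0.48 to 0.62 and from -0.82 to 0.38. The single call among these 12 was Uqcrb, a small subunit of complex III, lower in the labelled Htt-null pair at -0.82, with 43.1, 66.8, 30.9 and 37.9 CPM over the libraries. Of its windows 61.5% were copied elsewhere. Of all genes 33.9% were called higher and 26.1% lower in the labelled wild-type pair, and 34.3% and 24.8% in the other. Sdha, the flavoprotein of complex II, was at 262, 272, 259 and 271 CPM.

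In complex V, Atp5b had the highest level and was lower in both RA-DIFF libraries: 2244 and 2287 CPM in ESC against 1137 and 1116 CPM, with log2 ratios of -0.98 (interval -0.99 to -0.97) and -1.03 (-1.05 to -1.02). Atp5a1, which encodes the alpha subunit that alternates with beta in the same ring, was at 1301 and 1158 CPM in ESC and 1024 and 985 CPM in RA-DIFF, at -0.35 and -0.23. The beta gene was thus lower by more than the alpha gene in both pairs. Atp5sl was at 41.1 and 47.3 CPM in ESC and 17.4 and 15.7 CPM in RA-DIFF, at -1.24 and -1.59. Atp5h, a stalk subunit with 69.6% of its windows copied elsewhere, was at 52.2 and 74.3 CPM in ESC and 107 and 99.5 CPM in RA-DIFF, at 1.03 and 0.42. The 3 genes for subunit c of the rotor encode the same mature protein. Of their windows 86.8% were copied elsewhere in Atp5g1, 100% in Atp5g2 and 0% in Atp5g3, and the main copies lay outside the Atp5g genes, at another place on chromosome 11 for Atp5g1 and on chromosome 17 for Atp5g2, so the counts of these 2 are uncertain. Atp5g1 was at 68.7, 104.0, 52.5 and 51.3 CPM, Atp5g2 at 48.6, 49.5, 74.0 and 67.1 CPM and Atp5g3 at 145, 129, 190 and 172 CPM. Per length, Atp5g1 made up 26.9% and 37.3% of the 3 genes in ESC and 16.9% and 18.0% in RA-DIFF.

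The responses in the labelled genotypes, which share no library, were alike in direction for 70 of the 79 nuclear members above the limit, or 88.6%, and 87.4% of all genes above the limit had the same direction. Across these 79 genes Pearson's r was 0.91 and Spearman's rho 0.87, given as a description, since genes are not independent replicates; over all genes above the limit Pearson's r was 0.93. Of the nuclear members 10, or 12.7%, were called lower and 2, or 2.53%, higher in both pairs, beside 21.1% and 28.8% of all genes. Exchanging the RA-DIFF labels changes a stage call of 7 nuclear members, which are Cox4i1, Cox5b, Cox7b, Ndufa6, Ndufb7, Ndufs1 and Atp5k. All calls together were 10 higher and 13 lower in the labelled wild-type pair, or 12.7% and 16.5%, and 2 higher and 15 lower in the labelled Htt-null pair, or 2.53% and 19.0%. These shares are all below those of all genes, which were 33.9% and 26.1% in the first pair and 34.3% and 24.8% in the second. With the labels exchanged they are 8 higher and 15 lower, and 3 higher and 15 lower. Members with an NRF1 core in the promoter had medians of 0.51 and 0.30, those with a GABPA core 0.42 and 0.32, and those with neither -0.07 and -0.16. These groups of 10, 16 and 43 genes overlap in the first and second, and their difference was not tested.

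**Figure D3:**
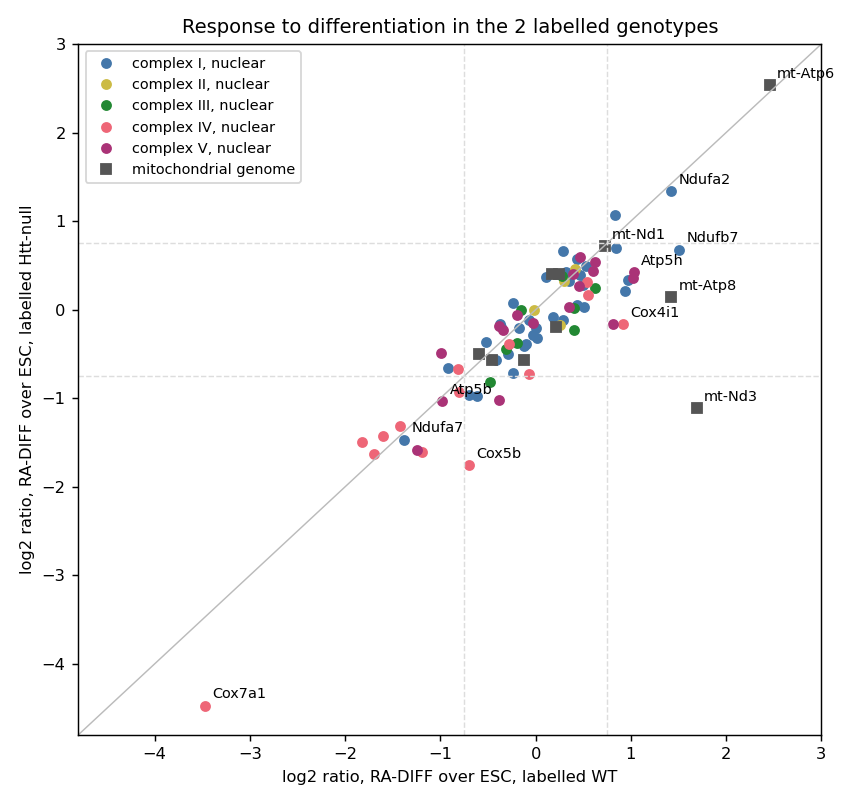
Each member above the expression limit is plotted by its log2 ratio of RA-DIFF over ESC in the libraries labelled wild-type (x axis) and Htt-null (y axis), colored by complex, with the line of equality and dashed lines at 0.75 and -0.75. Cox7a1 lies farthest down at -3.47 and -4.47, and mt-Nd3, Cox5b, Cox4i1 and mt-Atp8 lie away from the line.

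**Figure D4:**
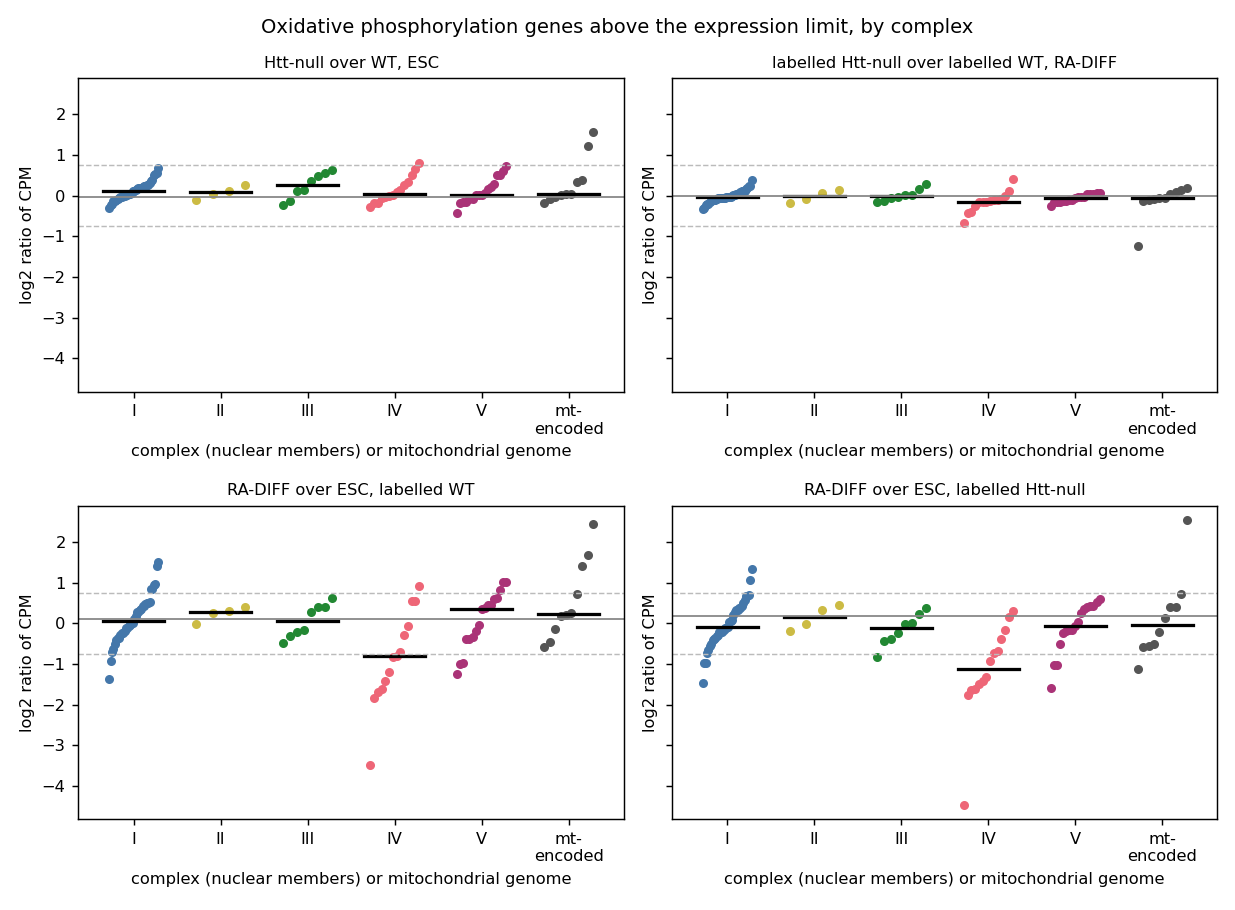
Log2 ratios of the members above the expression limit are plotted for the 4 comparisons, with 1 point per gene, a black bar at the median of each group, a grey line at the median of all genes and dashed lines at 0.75 and -0.75. Complex IV lies lowest in both differentiation panels, with medians of -0.81 and -1.13. These include Cox4i2 and Cox7a1, which passed the limit only through ESC, and are -0.75 and -0.83 without them. In the genotype panels nearly all points lie within the dashed lines.

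Between the genotypes in ESC, the nuclear members lay slightly above all genes, with a median log2 ratio of 0.11 against -0.04, and 52 of 79 were above 0. Only Cox5b of the nuclear members was called, higher in Htt-null ESC; 5.14% of all genes were called higher and 3.47% lower. Cox5b was at 45.6 CPM in wild-type and 80.4 CPM in Htt-null ESC, a log2 ratio of 0.82 (interval 0.76 to 0.88), with 39.8% of its windows copied elsewhere. Just under the limit were Atp5k, with 16.3 and 27.1 CPM and a log2 ratio of 0.73, and Ndufa12, with 19.2 and 31.0 CPM and 0.69. Atp5k is a small ATP synthase subunit that acts where the enzyme pairs into dimers, and Ndufa12 an accessory subunit of complex I. The lowest were Atp5s at -0.42 (16.4 and 12.3 CPM), Ndufb2 at -0.30 (22.8 and 18.5 CPM) and Cox5a at -0.27.

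The members above 0.45 in ESC, a value chosen after seeing the data, lay partly on particular chromosomes. Of these 14, 7 lie on chromosomes 8 and 11, and they are all the members of those chromosomes: Cox4i1, Ndufa13 and Ndufb7 on chromosome 8, at 0.67, 0.55 and 0.53, and Uqcr10, Uqcrq, Atp5g1 and Atp5h on chromosome 11, at 0.56, 0.49, 0.60 and 0.51. The median of all genes above the limit was 0.36 over the 816 genes of chromosome 8, 0.22 over the 1223 of chromosome 11 and -0.07 over the others. Of all genes 11.5% lay above 0.45, against 34.9% on chromosome 8 and 21.7% on chromosome 11. Without those members the nuclear median was 0.06. The chromosome levels move with this result, and their part in it was not tested. The other 7 above 0.45 were Cox5b, Atp5k, Ndufa12, Uqcrb, Atp5l, Cox7c and Ndufa3, 5 of which have at least 10% of their windows copied elsewhere, as have 25 of the 79 nuclear members. Transcript length moved with the ratio too: nuclear members of up to 600 bases had a median of 0.27 and those of 600 to 1000 bases 0.10, and all protein-coding genes of these lengths 0.08 and 0.07, against -0.09 above 4000 bases.

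**Figure D5:**
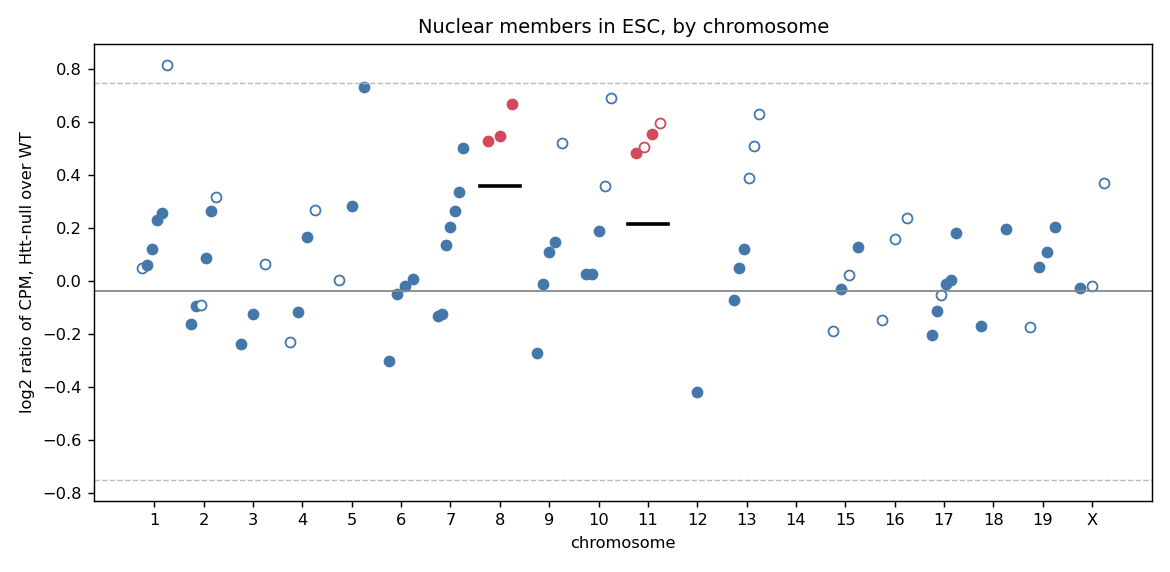
Log2 ratios of Htt-null over wild-type ESC are plotted for the 79 nuclear members above the expression limit by chromosome, with open points for members with at least 10% of windows copied, red for chromosomes 8 and 11, black bars at the medians of all genes of those chromosomes and a grey line at the median of all genes. The 7 members of chromosomes 8 and 11 lie between 0.49 and 0.67, above the chromosome medians of 0.36 and 0.22.

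Between the labelled genotypes in RA-DIFF, no nuclear member was called, while 11.7% of all genes were called higher and 8.99% lower; this is a count of ratios, as no test was made. Of the 79, 71 lay within 0.25 of 0, or 89.9%, against 45.8% of all genes. Few calls were not particular to the members. None was called among 48 assembly factors, 47 large mitochondrial ribosome genes, 21 mitochondrial RNA processing genes and 18 of mitochondrial transcription and replication. There was 1 call each among 29 small mitochondrial ribosome genes, 18 biogenesis regulators and 20 carriers and other subunits. The median of the nuclear members was -0.05, and -0.14 for complex IV, where 12 of 14 members were below 0. Highest were Cox4i2 at 0.42 on 53 and 63 counts (interval -0.11 to 0.99), Ndufa5 at 0.39 with 24.2 and 31.8 CPM, and Uqcrb at 0.30. Lowest were Cox7a1 at -0.66 on 59 and 32 counts (interval -1.36 to -0.05), Cox7a2l at -0.43 with 144 and 107 CPM, and Cox4i1 at -0.41 with 328 and 247 CPM. The cell types in this pair were not alike: 12 neuron markers summed to 3247 CPM in the library labelled wild-type and 1502 CPM in the one labelled Htt-null, and 14 mesenchyme markers to 798 and 2950 CPM. Of these, 9 of 12 neuron markers were called lower in the library labelled Htt-null and 13 of 14 mesenchyme markers higher, and none was at 0 in either library; their part in the member ratios was not tested. The genotype and the stage comparisons share libraries, so their ratios for a member are not independent.

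Among mitochondrial members, calls between genotypes were only on genes with copies elsewhere. mt-Atp8 was at 121 CPM in wild-type and 281 CPM in Htt-null ESC, a log2 ratio of 1.22, and at 324 and 309.8 CPM in the RA-DIFF pair. mt-Nd3 was called higher in Htt-null ESC at 1.57, on 58 and 132 counts, and was called lower under the Htt-null label in RA-DIFF at -1.24, on 248 and 91 counts. If the RA-DIFF labels are exchanged this ratio is 1.24, in the direction of ESC. With differentiation mt-Atp6 was called higher in both pairs, at 2.46 and 2.54, with 20.4 and 18.0 CPM in ESC against 112 and 105 CPM, and mt-Atp8 at 1.42 in the labelled wild-type pair and 0.14 in the other. mt-Co1 was at 3731, 4879, 3420 and 3291 CPM and mt-Nd4 at 701, 889, 816 and 774 CPM, both highest in Htt-null ESC and both with most of their windows copied.

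Genes that build or feed the complexes were followed as lists. The 48 assembly factors above the limit had medians of 0.07 and -0.01 between genotypes and -0.21 and -0.18 with differentiation, where 10, or 20.8%, and 12 of the 48 were called lower, beside 26.1% and 24.8% of all genes. Called higher were 4 and 3, or 8.33% and 6.25%, beside 33.9% and 34.3% of all genes. Among them the complex IV factors Cox17, a copper chaperone, and Cox18, which inserts a subunit into the membrane, were called lower, at -1.76 and -1.72 and at -1.96 and -1.42, whereas Cox19 was called higher, at 2.33 and 1.94. In ESC the 3 factors called, all higher in Htt-null, were Pet100 at 0.87, which lies on chromosome 8, Lyrm7 at 0.78, on chromosome 11, and Uqcc2 at 0.75. They are 6.25% of the 48, near the 5.14% of all genes called higher. Mitochondrial RNA processing and stability genes had the lowest medians with differentiation among the lists of mitochondrial function, -0.73 and -0.75, with 10 and 11 of 21 called lower and none higher, or 47.6% and 52.4% lower beside 26.1% and 24.8% over all genes. Lrpprc, which stabilizes mitochondrial mRNA, was at 194 and 214 CPM in ESC and 99.1 and 96.5 CPM in RA-DIFF. Genes for transcription and replication of the mitochondrial genome had medians of -0.47 and -0.45, with Tfam, which packages and transcribes it, at 118 and 101 CPM in ESC and 72.4 and 65.9 CPM in RA-DIFF. The mitochondrial ribosome had medians of -0.34 and -0.33 for its large subunit and -0.37 and -0.56 for its small one.

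Carriers, regulators and subunits outside the name rule were followed too. Ndufa4l2, a paralog of the complex IV subunit Ndufa4 known to be induced in low oxygen, was at 20.6 and 15.1 CPM in ESC and 0.803 and 0.264 CPM in RA-DIFF, so it passed the limit only through ESC, which fixed its direction. Ndufa4 itself, which is counted here with complex I by its name but is known as a subunit of complex IV, was at 121, 120, 131 and 155 CPM. Among regulators of mitochondrial biogenesis 8 and 7 of 18 were called lower with differentiation, or 44.4% and 38.9% beside 26.1% and 24.8% over all genes, and 3 and 3 higher, or 16.7% in each pair beside 33.9% and 34.3%. Their medians were -0.66 and -0.43. Ppargc1a, a coactivator of these genes, was at 3 and 7 counts in ESC, and at 916 and 1172 counts in RA-DIFF, through which alone it passed the limit. Esrrg, a nuclear receptor, likewise passed it only through RA-DIFF, with 8 and 10 counts in ESC and 665 and 740 in RA-DIFF, so the limit fixed the direction of 2 of the 3 called higher, the other being Myc. Among the regulators called lower in both pairs, Esrrb, at -6.31 and -8.88, is also 1 of the 8 pluripotency markers. Gabpa was at 306 and 266 CPM in ESC and 108 and 121 CPM in RA-DIFF and Nrf1 at 92.9, 83.0, 85.2 and 78.2 CPM. Cyc1, the heme subunit of complex III outside the name rule, was at 191, 214, 137 and 139 CPM, and Cycs, cytochrome c, at 31.6, 39.2, 33.3 and 37.1 CPM. In the list of uncoupling proteins and nucleotide carriers Slc25a4, the muscle and brain form of the ADP/ATP carrier and a gene of chromosome 8, was at 98.5, 200, 526 and 453 CPM.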

How the data were processed

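RNA-seq was measured in 4 libraries of mouse cells, 1 per condition: wild-type and Htt-null ESC, and RA-DIFF cells under the labels wild-type and Htt-null. Per the labels and the study's methods, the authors mapped 50-base paired reads of strand-specific poly-A-plus libraries to GRCm38 with TopHat2 2.0.14 and a GENCODE annotation, and deposited raw counts per gene from HTSeq 0.6.1; default settings are stated for options not named, the strand option among them. The small RNA counts of the series were not used here.

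Counts were scaled over the 4 libraries by TMM (edgeR 4.0.16, R 4.3.3), and log2 ratios of CPM used a prior count of 2. Genes with an average log2 CPM above 0 (15492 genes) were kept, and were called past an absolute log2 ratio of 0.75. With 1 library per condition no comparison within a pair has replicates, and no test was made. A fit with stage and genotype as additive terms would leave 1 residual degree of freedom over the 4 libraries, and was not made; edgeR's exact test at assumed dispersions of 0.1 and 0.01 was an alternative only, and median-of-ratios factors came from DESeq2 1.42.0. Exact 95% intervals (binomial for shares, conditional binomial for ratios) cover counting error only, since reads without molecular identifiers are not independent molecules.

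Levels per kb used the principal transcript's length in GENCODE vM21, found for all 96 members. Its windows of 50 bases were searched in GRCm38 on both strands outside the gene. Of the 96 members 38 overlap another gene of the table and may share reads with it. Promoters are from RefSeq (GRCm38.p6). Further computing used Python 3.11.15 with pandas 2.3.3, numpy 2.4.6 and scipy 1.17.1, and matplotlib 3.10.9 drew the plots.

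Members and lists were chosen with earlier results of these data known. Named are the 13 mitochondrial members, the 3 highest and 3 lowest nuclear members of each comparison, nuclear members called between genotypes, the tissue forms of complexes IV and V, and, of the other lists, called and defining genes. The other members named (among them Sdha, Sdhb, Atp5a1, Atp5b, Atp5sl, Ndufa4, Ndufa7, Cox6c, Ndufs1, Ndufs8 and those of chromosomes 8 and 11), and the order of results, were chosen after their values were seen.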

Additional observations from a re-analysis of the deposited data

Results flagged for a closer look

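mt-Nd3, which encodes a membrane subunit of complex I, was called in opposite directions by genotype at the 2 stages and by stage in the 2 labelled genotypes. For Htt-null against wild-type its log2 ratio was 1.57 among ESC and -1.24 between the labelled RA-DIFF libraries, and its log2 ratio of RA-DIFF over ESC was 1.69 in the libraries labelled wild-type and -1.11 in those labelled Htt-null. If the labels of the RA-DIFF pair are exchanged, the ratio between its libraries is 1.24, and the stage ratios are 0.45 and 0.13, so that neither contrast keeps opposite directions. These differences were not tested, since each condition has 1 library. The gene had 58 and 132 counts in wild-type and Htt-null ESC and 248 and 91 counts in the RA-DIFF libraries labelled wild-type and Htt-null. Of its 50-base windows 99.0% occur elsewhere in the genome, and the chromosome 1 pseudogene that copies it, Gm28438, held 127, 158, 367 and 192 counts in the same order. The pseudogene moved in the same direction as mt-Nd3 in all 4 comparisons, and its part in the values of mt-Nd3 was not tested.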

How the results depend on the processing

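Each condition has 1 library, so no replicate could be left out. No paired analysis was made. The labels carry no replicate numbers, each group is 1 library, and pairing the stages within each line would leave 1 residual degree of freedom. All members, mitochondrial ones included, called higher numbered 3 between ESC genotypes, 0 between RA-DIFF genotypes, and 13 and 3 for RA-DIFF over ESC in the libraries labelled wild-type and Htt-null, and those called lower 0, 1, 13 and 16. With no limit on low counts they were 5 higher and 2 lower in ESC, 2 higher in RA-DIFF and 5 higher in the labelled Htt-null stage pair. Requiring the exact test at a dispersion of 0.1 left 1 higher in ESC, 0 lower in RA-DIFF, 5 higher and 6 lower in the labelled wild-type stage pair and 9 lower in the other. Beyond an absolute log2 ratio of 1 the labelled wild-type stage pair had 7 higher and 8 lower. Over members with under 10% of windows copied, a choice made after seeing the data, 0 were higher in ESC, 0 lower in RA-DIFF, 7 higher in the labelled wild-type stage pair and 10 lower in the other. After exchanging the RA-DIFF labels, 1 was higher and 0 lower between them, and the nuclear median turned from -0.0505 to 0.0505.

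Scaling by library size alone gave nuclear medians of -0.1052 between RA-DIFF genotypes and -0.2304 in the labelled Htt-null stage pair, from -0.1587. In the labelled wild-type stage pair the nuclear median of -0.0204 became 0.0187 by library size and -0.0717 by median-of-ratios factors. Its sign thus depends on the scaling. The medians of the mitochondrial members, 0.0443, -0.0594, 0.235 and -0.0287 in the same order of comparisons, became 0.1003, -0.1142, 0.2742 and -0.1003 by library size, and 0.0164, -0.047 and 0.1838 in the first 3 by median-of-ratios factors. They became 0.0594, 0.3798 and 0.1667 in the last 3 with labels exchanged, 0.0354, 0.2192 and -0.2001 in the last 3 without mt-Co1, mt-Co2, mt-Atp8, mt-Atp6 and mt-Co3, and 0.0114, 0.1035, 0.1737 and 0.4003 under 10% copied. The sign of the mitochondrial median thus depends on the genes included in the RA-DIFF genotype comparison and in the labelled Htt-null stage pair; the cause was not tested. As shares of protein-coding counts the mitochondrial members took 1.4971% and 1.7257% in wild-type and Htt-null ESC and 1.6344% and 1.6352% in RA-DIFF. Scaling without the mitochondrial genes, a dispersion of 0.01, a prior count of 0.5 and leaving out chromosomes 8 and 11 (added after seeing the data) moved no count by over 1.5 times and turned no direction in the results recomputed. Low counts limit Cox6a2, Cox7b2, Cox8b, Cox8c, mt-Co2, mt-Co3, mt-Nd4l and mt-Nd3, and the lack of replicates limits every comparison.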

Other observations

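Ribosomal and transfer RNAs of the mitochondrial genome, which the name rule leaves out by biotype, differed between the libraries. mt-Rnr1, the small ribosomal RNA, was at 748 CPM in wild-type ESC, 951 CPM in Htt-null ESC, 412 CPM in the library labelled wild-type RA-DIFF and 196 CPM in the one labelled Htt-null. Its log2 ratio of RA-DIFF over ESC was -0.86 and -2.28 in the labelled wild-type and Htt-null libraries. mt-Rnr2, the large ribosomal RNA, was at 1285, 1598, 1465 and 1132 CPM in the same order. The ribosomal RNAs took 0.200%, 0.261%, 0.190% and 0.130% of all counts and the transfer RNAs 0.0189%, 0.0226%, 0.0112% and 0.00776%. The libraries were made from poly-A-plus RNA, which holds ribosomal and transfer RNAs only in part.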
